A study of Mus musculus with 7 samples.

Results

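The genes examined were 9 members of the JAK-STAT pathway and its feedback arm: the kinase gene Jak1, the transcription factor genes Stat3, Stat5a, Stat5b and Stat6, and the inhibitor genes Socs1, Socs2, Socs3 and Cish. They were taken by symbol from the 48795 genes of the deposited table, whatever their values. All 9 were found, and 7 reached the minimum for testing, which 11573 genes in all did. That minimum was 1 TPM, a unit of reads per gene length set to the same total in every library, in at least 3 libraries. The remaining genes, Socs1 and Socs3, were too low and are described without a test. Whether a gene reached the minimum is not a result, since a gene present in PCs alone could reach it.

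Cytokine receptors have no kinase domain of their own and carry Janus kinases (JAKs) on their cytoplasmic tails. When a cytokine binds, the kinases phosphorylate the receptor, STAT proteins dock there, are phosphorylated in turn, pair up and move to the nucleus, where they bind DNA. Among the genes they switch on are those of the SOCS proteins and CIS (gene Cish), which bind receptors or kinases and damp the signal. In B cells, STAT6 is activated by IL-4, STAT3 by IL-6, IL-10 and IL-21, and the STAT5 proteins by cytokines such as IL-2 and IL-7.

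The libraries were made from B-lineage cells of the spleen of wild type C57BL/6 mice, all female and 8 to 12 weeks old, which had received sheep red blood cells (SRBC), a T cell-dependent antigen, intravenously 10 days earlier. There were 3 libraries of memory B cells (MBCs), sorted as B220+ CD138neg IgDneg CD38+ CD273+, and 4 libraries of plasma cells (PCs), sorted as B220lo CD138+ IgD-. Both groups were enriched for B cells with CD43 beads before the sort, and both came from immunized mice, so there is no unimmunized group. The titles carry codes, of which 3 occur in both groups, and the labels do not say what they mark. Nor do they say whether the libraries of a group came from separate mice, so p-values measure only the spread between these libraries, which may be technical.

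Levels are given as scaled TPM, which is TPM divided by a factor per library, and lists of values follow the order of the replicate numbers. The factor was needed because immunoglobulin genes took 49.4% to 55.9% of TPM in PCs and 1.65% to 3.16% in MBCs. Mitochondrial genes took 33.2%, 33.5% and 19.7% of TPM in the 3 MBC libraries and 8.10% to 9.80% in PCs. With immunoglobulin, mitochondrial and ribosomal RNA genes removed and the rest rescaled, the log2 fold change, PC minus MBC, was -1.79 for Jak1 and 3.37 for Socs2, and both passed (limma, adjusted p = 0.0098 and 0.0334). TPM keeps no read totals, so depth was not known, and a value of 0 is given only as listed at 0. Genes above 0 numbered 12983, 11527 and 18061 in the 3 MBC libraries and 14463 to 16768 in PCs. The summed level of 5 plasma cell genes was 9563 to 16486 scaled TPM in PCs and 149 to 293 in MBCs, and that of 5 B cell genes was 760 to 929 in PCs and 1293 to 3308 in MBCs. No other MBC library carries the title prefix of the library labelled MBC replicate 3, so among MBCs the prefix and the library cannot be told apart. PC replicate 4 carries the same prefix and code, and its Pearson's r with the other PC libraries was 0.86 to 0.957. The library labelled MBC replicate 3 stood nearer to PCs than the other MBC libraries did. Its correlation with PC libraries (Pearson's r 0.70 to 0.777 across genes, which are not independent replicates) was above its correlation with the other MBC libraries (at most 0.687). Transcripts of its sort markers Cd38 and Pdcd1lg2 (CD273), at 6.77 and 2.59 scaled TPM, were not above the PC range. The sort marker Sdc1 (CD138) went with the label, at 0.0585 scaled TPM in this library and 49.6 to 78.1 in PCs. Ighd was 9.55, against 85.8 and 39.9 in the other MBC libraries and 14.2 to 38.8 in PCs. Both groups were sorted as negative for IgD, so Ighd does not separate the labels. Its 5 proliferation genes summed to 703 scaled TPM against 104 and 116 in the other MBC libraries. Its 5 germinal center (GC) genes summed to 592 scaled TPM, against 208 and 233 in the other MBC libraries and 59.6 to 121 in PCs. Values without it are given where it changed a call or moved the log2 fold change of a named gene by more than 1.5 times, beside the gene or with the effects of the processing. Erythroid genes summed to 2897 scaled TPM in MBC replicate 2 and to at most 72.6 in any other library.

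In the GRCm38 assembly, Stat5b (chr11:100780731-100850724, minus strand), Stat5a (chr11:100859351-100885169, plus strand) and Stat3 (chr11:100885098-100939540, minus strand) lie side by side, and the ends of Stat5a and Stat3 overlap. Stat6 lies at chr10:127642986-127660957, Socs2 at chr10:95385362-95417180, Jak1 at chr4:101152367-101265282, Cish at chr9:107296026-107302784, Socs1 at chr16:10782240-10785536 and Socs3 at chr11:117966079-117970047. STAT dimers bind palindromic sites whose core letters are TTCNNNGAA. These letters, which read the same on both strands, were searched in RefSeq promoter windows (GRCm38.p6), each reaching from 250 bases before to 50 bases after a transcript's start. They occurred in 2726 of 32851 windows of all genes (8.30%) and more than once in 150 (0.457%). Of the 8 genes with windows in the table (10 windows), 2 held a match, both of them feedback inhibitors, and their windows are shown for that reason with the matching letters in capitals. The Cish window (chr9:107296409-107296708, plus strand) held the motif at 2 places, starting at positions 1 and 12 when the RefSeq start is position 1. Its last bases were found in a Cish transcript of the gene annotation. The window lies inside the Cish span given above, so the annotated gene starts before it. The Socs3 window (chr11:117969317-117969616, minus strand) held it once, starting at position -154, counted back from the start. The last bases of this window were not found in any Socs3 transcript of the gene annotation. The window lies inside the Socs3 span given above, so its distance to a transcript's start is uncertain. A match describes letters in the window and is not evidence of binding.
Cish: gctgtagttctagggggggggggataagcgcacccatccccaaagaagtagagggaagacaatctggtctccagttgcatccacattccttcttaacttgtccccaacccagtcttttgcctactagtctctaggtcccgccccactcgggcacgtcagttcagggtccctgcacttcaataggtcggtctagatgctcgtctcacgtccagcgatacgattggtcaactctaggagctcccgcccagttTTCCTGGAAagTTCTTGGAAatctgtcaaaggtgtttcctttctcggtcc
Socs3: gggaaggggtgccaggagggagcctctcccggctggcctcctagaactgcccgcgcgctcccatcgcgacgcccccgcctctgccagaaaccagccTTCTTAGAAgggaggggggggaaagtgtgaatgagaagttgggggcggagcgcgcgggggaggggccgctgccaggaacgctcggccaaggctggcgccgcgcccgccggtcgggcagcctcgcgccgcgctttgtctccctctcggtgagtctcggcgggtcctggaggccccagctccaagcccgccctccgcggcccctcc

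Jak1, which encodes the kinase shared by the receptors of the IL-2, IL-4, IL-6, IL-10 and interferon families, fell in PCs. It was 101 scaled TPM in MBC replicate 1, 126 in replicate 2 and 67.6 in replicate 3, and 29.5, 28.6, 30.95 and 31.2 in the 4 PC libraries. The groups did not overlap, and the PC libraries lay within a narrow band. The MBC mean was 98.5 ± 29.5 (SD, n = 3) and the PC mean 30.1 ± 1.24 (SD, n = 4), so the level was 3.28 times higher in MBCs. The log2 fold change, PC minus MBC on log2(scaled TPM + 1), was -1.64 (SE 0.33; 95% interval -2.38 to -0.89; limma, adjusted p = 0.0148). Genes called lower in PCs, that is with an adjusted p under 0.05 and a log2 fold change of at least 1 in size, made up 2.14% of all genes tested, and genes with every PC library below every MBC library 8.68%. The call was lost without PC replicate 2 (-1.61, limma, adjusted p = 0.0602) or without PC replicate 4 (-1.65, limma, adjusted p = 0.051). With a term for the replicate number or for the title code it was lost too (limma, adjusted p = 0.129 and 0.09). These are bulk samples, in which fewer cells with a transcript and less of it per cell cannot be told apart.

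Stat6, the factor through which IL-4 and IL-13 act, had the largest difference in mean level among the STAT members but did not pass the test with all libraries. Its values were 97.4, 53.6 and 15.1 scaled TPM in the 3 MBC libraries and 9.60, 6.17, 11.9 and 9.15 in the 4 PC libraries. Every PC library lay below every MBC library, as for 8.68% of all genes tested. The library labelled MBC replicate 3 was much closer to the PCs than to the other MBCs. The MBC mean was 55.4 ± 41.1 (SD, n = 3) and the PC mean 9.20 ± 2.36 (SD, n = 4), and the log2 fold change was -2.15 (SE 0.60; 95% interval -3.49 to -0.81; limma, adjusted p = 0.057). Without the library labelled MBC replicate 3 the log2 fold change was -2.87 and passed (limma, adjusted p = 0.0037), in a fit that called 7.94% of all genes lower. That library also had the highest GC and proliferation sums of the 7, and their part in its Stat6 level was not tested. Nab2, which lies on the opposite strand and overlaps the end of Stat6, averaged 9.36 scaled TPM in MBCs and 6.59 in PCs, and whether the counting used strand is not given in the sources used here.

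Stat3, which carries signals of IL-6, IL-10 and IL-21, overlapped between the groups. It was 84.9, 44.2 and 31.1 scaled TPM in the 3 MBC libraries and 55.4, 27.1, 37.5 and 20.6 in the 4 PC libraries. The highest library was an MBC library and the lowest a PC library, with the rest interleaved. The log2 fold change was -0.56 (SE 0.47; 95% interval -1.61 to 0.49; limma, adjusted p = 0.508), an interval that still holds a drop of more than 1. Stat3 passed only with TPM used as deposited (-1.85, limma, adjusted p = 0.0171), a scale on which the median of all genes tested moved from 0.14 to -0.91.

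The STAT5 genes, which encode closely related factors for IL-2 and IL-7 signals, were low in both populations. Stat5a was 8.42, 0.63 and 4.52 scaled TPM in the 3 MBC libraries and 9.17, 1.90, 3.59 and 4.87 in the 4 PC libraries. Stat5b was 5.59, 3.59 and 5.60 in MBCs and 1.46, 8.09, 7.96 and 4.91 in PCs. Both genes overlapped between the groups, and in PC replicate 1 Stat5a was at its highest and Stat5b at its lowest. The log2 fold changes were 0.27 for Stat5a (SE 0.72; 95% interval -1.33 to 1.88; limma, adjusted p = 0.849) and 0.01 for Stat5b (SE 0.59; 95% interval -1.33 to 1.34; limma, adjusted p = 0.996). Of the stretches of 31 bases in the longest coding transcript, 21.7% in Stat5a also occurred in Stat5b and 16.1% in Stat5b also occurred in Stat5a. How reads of these stretches were divided between the genes depends on the counting, and the single values are uncertain to that extent.

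**Figure D1:**
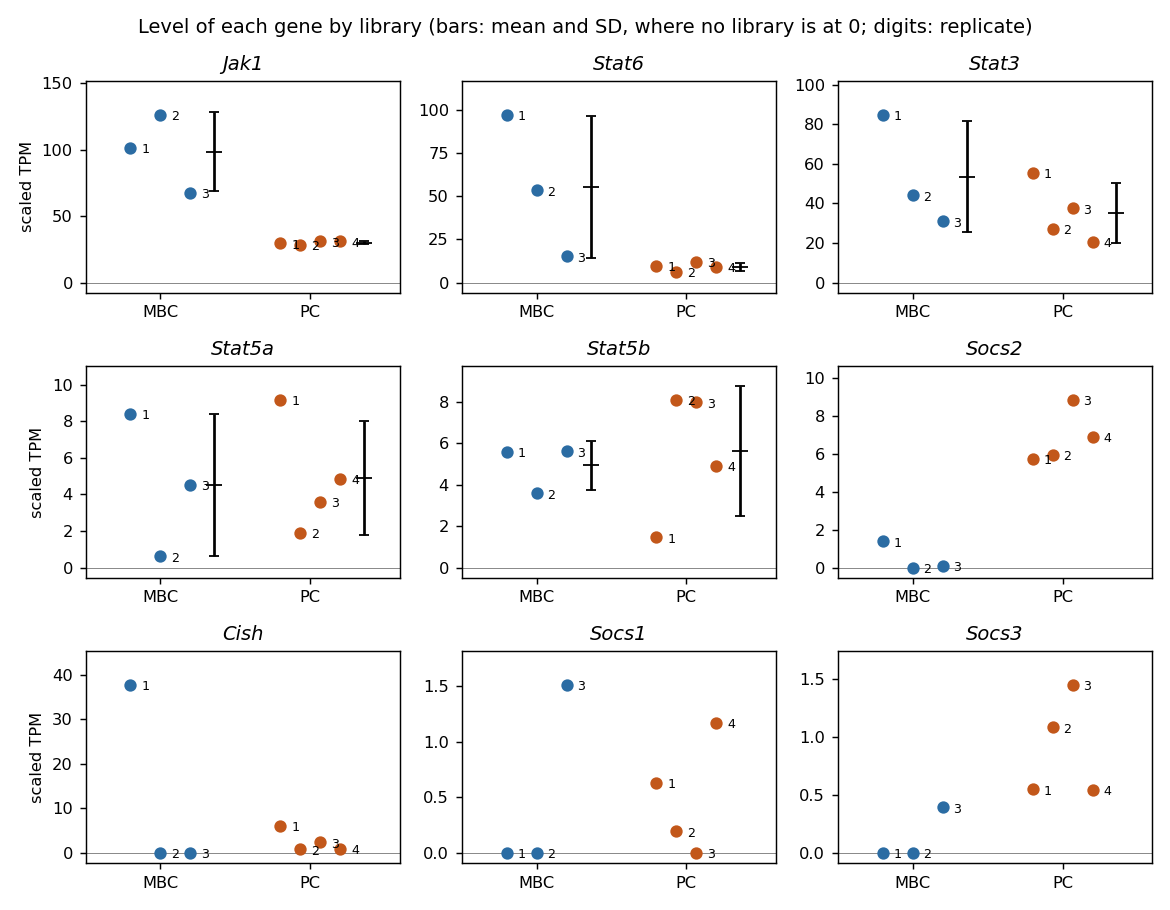
Scaled TPM (vertical axes, linear, each with its own range) of the 9 genes in the 3 MBC libraries (blue) and the 4 PC libraries (orange). Digits give the replicate and black bars the mean and SD where no library is listed at 0. Jak1, Stat6, Socs2 and Socs3 do not overlap between the groups, while the other 5 genes do. Of all genes tested, 13.0% had every PC library above every MBC library and 8.68% every PC library below. Socs3 was too low to be tested.

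Socs2, a STAT5-induced inhibitor best known for limiting growth hormone signals, rose in PCs. It was 1.39 scaled TPM in MBC replicate 1, listed at 0 in replicate 2 and 0.09 in replicate 3, and it was 5.74, 5.93, 8.83 and 6.89 in the 4 PC libraries. All 4 PC libraries lay above the highest MBC library. Socs2 reached the minimum for testing only because of its PC libraries, since its deposited TPM in MBCs was 2.53, 0 and 0.18. The log2 fold change was 2.50 (SE 0.52; 95% interval 1.34 to 3.65; limma, adjusted p = 0.0162), which understates the change of a gene this low in MBCs. Genes called higher in PCs made up 6.41% of all genes tested, and genes with every PC library above every MBC library 13.0%. The adjusted p passed 0.05 by little and rose above it without PC replicate 2, 3 or 4 (limma, adjusted p = 0.057, 0.0523 and 0.0571) or with no minimum level (0.071). With a term for the replicate number or for the title code it also rose above 0.05 (limma, adjusted p = 0.121 and 0.0999). Of its stretches of 31 bases, 21.7% also occurred in the pseudogene Gm9847, which was listed at 0 in every library.

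Cish, another STAT5-induced inhibitor and the gene with the motif at 2 places in its window, was decided by 1 library. It was 37.7 scaled TPM in MBC replicate 1, listed at 0 in replicate 2 and 0.02 in replicate 3, against 6.01, 0.80, 2.34 and 0.95 in the 4 PC libraries. Apart from MBC replicate 1, every PC library lay above both remaining MBC libraries. The log2 fold change was -0.18 (SE 1.21; 95% interval -2.89 to 2.53; limma, adjusted p = 0.945), and 1.57 without MBC replicate 1 (limma, adjusted p = 0.21). Gm17041, an antisense gene that overlaps Cish, averaged 4.97 scaled TPM in MBCs and was listed at 0 in PCs, and without knowledge of strand its reads and those of Cish cannot be told apart.

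Socs1 and Socs3, the inhibitors that block JAK activity directly, were near the lower end of the table. Socs1 stood at 0 in MBC replicates 1 and 2 and was 1.51 scaled TPM in replicate 3, and it was 0.63, 0.19, 0 and 1.17 in the 4 PC libraries. The groups overlapped, and the highest value was that of the library labelled MBC replicate 3. Socs3 stood at 0 in MBC replicates 1 and 2 and was 0.39 in replicate 3, against 0.55, 1.09, 1.45 and 0.54 in the 4 PC libraries. Every PC library lay above every MBC library for Socs3, as for 13.0% of all genes tested, but Socs3 was too low to be among these. Both genes could be fitted only with no minimum level, where the log2 fold change was 0.08 for Socs1 (limma, adjusted p = 0.931) and 0.74 for Socs3 (limma, adjusted p = 0.245).

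Over the 7 members tested, 1 was called higher and 1 lower in PCs, against 6.41% and 2.14% of all genes tested, and the median log2 fold change was -0.18, against 0.14 for all genes tested. In MBCs the order of mean levels began with Jak1 (98.5 scaled TPM), Stat6 (55.4) and Stat3 (53.4). Jak1 was above Stat6 in 3 of 3 MBC libraries, while Stat6 and Stat3 did not differ beyond their spread. In PCs the order began with Stat3 (35.1) and Jak1 (30.1), which changed places between libraries, followed by Stat6 (9.20). Socs2, Stat5b and Stat5a came next in PCs and overlapped in their ranges.

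**Figure D2:**
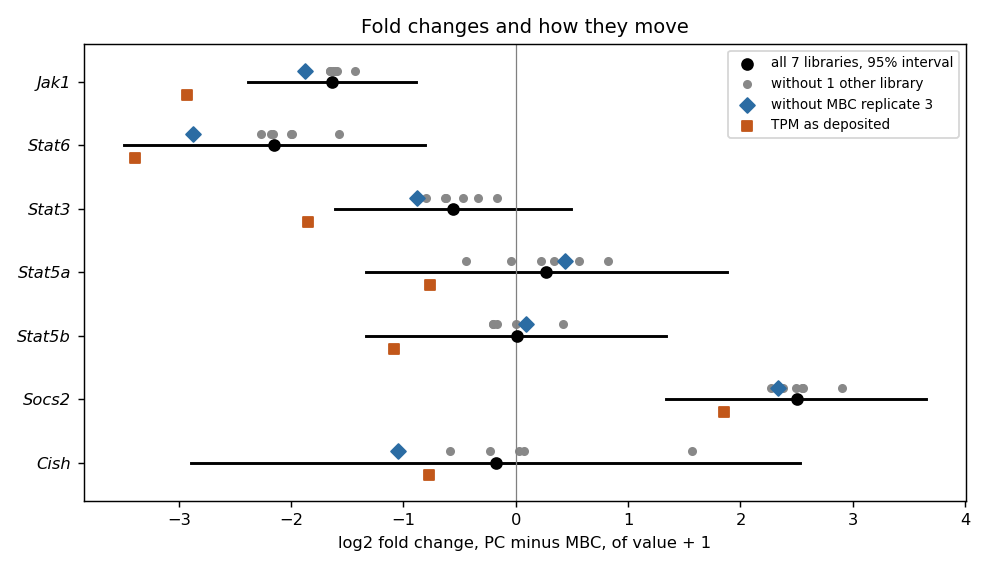
Log2 fold change, PC minus MBC on log2(value + 1), of the 7 genes tested (horizontal axis), with black points and lines for the estimate and its 95% interval over all 7 libraries. Grey points leave out 1 other library, blue diamonds leave out the library labelled MBC replicate 3 and orange squares use TPM as deposited. Jak1 and Stat6 stay below 0 and Socs2 above 0 throughout, while Stat5a, Stat5b and Cish lie on both sides of 0.

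The make-up of a gene group within a library does not depend on how libraries were scaled. The share of Stat6 in the summed TPM of the 6 genes from Stat2 to Stat6 was 38.9%, 43.9% and 22.1% in the 3 MBC libraries and 9.54%, 10.7%, 16.4% and 18.8% in the 4 PC libraries. All PC shares were below all MBC shares. Stat3 held 33.9% to 45.2% of this sum in MBCs and 42.4% to 55.1% in PCs, where it was the largest part in every library. The ratio of Stat6 to Stat3 was 1.15, 1.21 and 0.488 in the 3 MBC libraries and between 0.173 and 0.445 in PCs, so Stat3 exceeded Stat6 in all 4 PC libraries and in the library labelled MBC replicate 3. Jak1 made up 68.4%, 75.8% and 70.9% of the summed TPM of the 4 JAK genes in the 3 MBC libraries and 50.2%, 57.1%, 54.7% and 60.4% in the 4 PC libraries. It was the most abundant JAK gene in all 7 libraries, and its MBC and PC shares did not overlap. Socs2 made up 21.6% to 31.2% of the summed TPM of the SOCS genes and Cish in PCs and at most 2.98% in MBCs. Cish took 80.9% of that sum in MBC replicate 1 and at most 0.142% in the other MBC libraries.

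**Figure D3:**
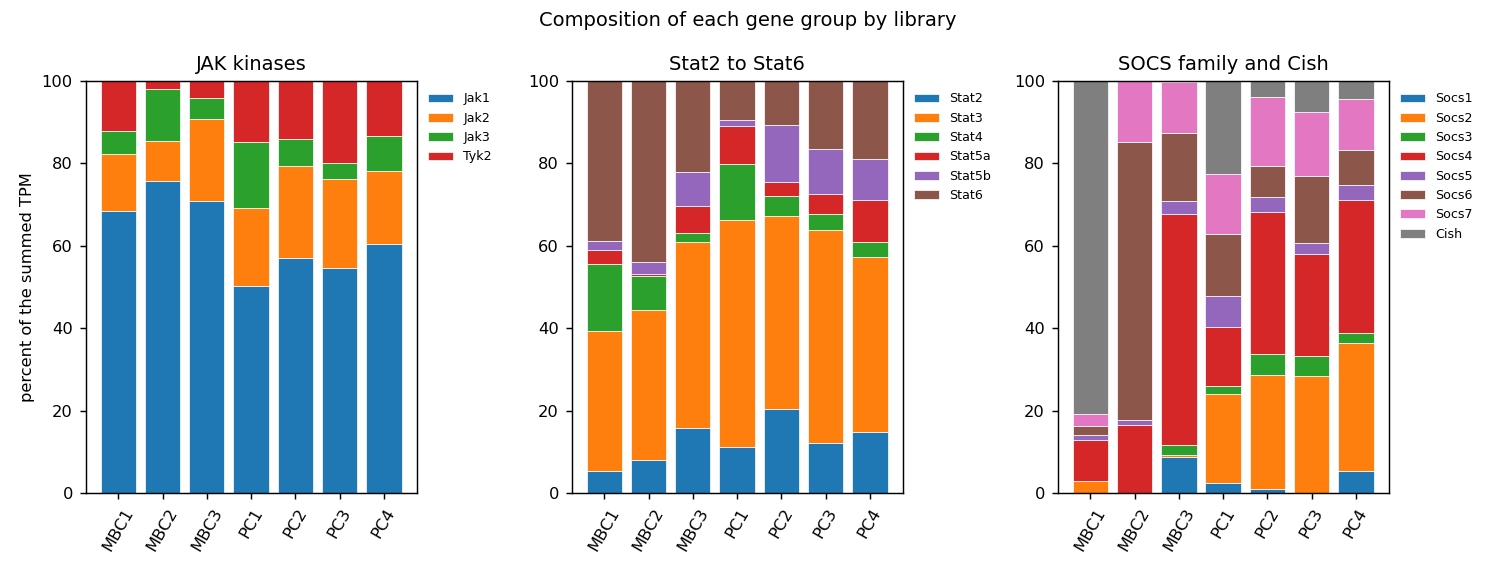
Percent of the summed TPM of 4 JAK genes, 6 STAT genes and 8 genes of the SOCS family with Cish (vertical axis) in each library (horizontal axis), with 1 colour per gene. Stat6 is at most 18.8% of the STAT sum in PCs and at least 22.1% in MBCs, and Socs2 is at least 21.6% of the SOCS sum in PCs and at most 2.98% in MBCs.

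Among the other STAT and kinase genes read here (Stat2, Stat4, Jak2, Jak3 and Tyk2), 0 of 5 were called in either direction by limma. Of all genes tested, 6.41% were called higher and 2.14% lower in PCs. Of the 5 genes, 0 had an unadjusted p under 0.05. The median log2 fold change was -0.71. Jak2, which serves receptors of the GM-CSF, prolactin and interferon gamma type, was 16.1 to 20.4 scaled TPM in MBCs and 9.22 to 12.2 in PCs without overlap (-0.71, SE 0.38; limma, adjusted p = 0.287). Stat2, which carries type I interferon signals, was 9.87 to 13.6 scaled TPM in MBCs and 7.24 to 11.8 in PCs. Stat4, which carries IL-12 signals, varied widely within both groups, at 40.4, 10.04 and 1.57 scaled TPM in the 3 MBC libraries and 13.7, 2.85, 2.68 and 1.81 in the 4 PC libraries (-1.10, SE 0.94; limma, adjusted p = 0.52). Its log2 fold change was -0.11 without MBC replicate 1 and -2.12 without MBC replicate 3, and neither passed (limma, adjusted p = 0.947 and 0.107).

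Of the 13 other inhibitor genes (Socs4 to Socs7, the Pias genes, several phosphatases and the adaptor Sh2b3), 12 were tested. By limma, 3 of them were called lower in PCs and 0 higher, against 2.14% and 6.41% of all genes tested. At an unadjusted p under 0.05, 3 were lower and 1 was higher. The median log2 fold change was 0.22. Sh2b3, whose adaptor protein LNK restrains JAK signalling, was 35.3, 54.4 and 21.0 scaled TPM in the 3 MBC libraries and 5.27, 4.30, 10.6 and 5.02 in the 4 PC libraries (-2.35, SE 0.49; limma, adjusted p = 0.0165). Ptpn6, which encodes the phosphatase SHP-1, was 70.7, 134 and 111 scaled TPM in MBCs and 21.7 to 41.8 in PCs (-1.65, SE 0.37; limma, adjusted p = 0.0237). Ptpn1, which encodes a phosphatase that acts on JAK2 and TYK2, was 29.2, 45.6 and 18.7 scaled TPM in MBCs and 8.80 to 9.17 in PCs (-1.60, SE 0.42; limma, adjusted p = 0.0454). None of the 3 overlapped between the groups. Of all genes tested, 8.68% had every PC library below every MBC library. Each of the 3 lost its call in some fits that left out 1 library, with limma adjusted p at most 0.14. Sh2b3 lost it without PC replicate 2 or 4, Ptpn6 without MBC replicate 2 or PC replicate 1, 2 or 3, and Ptpn1 when any library other than MBC replicate 3 was left out. Ptpn11, which encodes SHP-2, was 6.23 to 13.4 scaled TPM in MBCs and 17.2 to 27.2 in PCs, higher in all 4 PC libraries but not called (1.05, SE 0.42; limma, adjusted p = 0.158). Ptpn2 and Pias1, the other abundant members of the list, overlapped between the groups.

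Receptor genes went both ways. Of 22, 19 were tested, 7 were called higher in PCs and 3 lower, against 6.41% and 2.14% of all genes tested. Without overlap, 9 were higher and 4 lower in PCs, against 13.0% and 8.68% of all genes tested. The median log2 fold change was 0.57. The genes called lower encode receptor chains for IL-4, IL-21 and interferon gamma. Il4ra, the chain through which STAT6 is activated, was 94.0, 49.9 and 42.1 scaled TPM in the 3 MBC libraries and 5.33, 5.77, 3.70 and 8.06 in the 4 PC libraries. The lowest MBC library was far above the highest PC library, the mean was 10.8 times higher in MBCs, and the log2 fold change was -3.18 (SE 0.44; limma, adjusted p = 0.0019). Ifngr1 was 47.3, 64.7 and 26.9 scaled TPM in MBCs and 4.12 to 12.1 in PCs (-2.43, SE 0.50; limma, adjusted p = 0.0152). Il21r was 44.5, 30.6 and 32.1 scaled TPM in MBCs and 8.74 to 11.7 in PCs (-1.63, SE 0.37; limma, adjusted p = 0.0237). It lost its call without MBC replicate 1 (adjusted p = 0.0622) and without any single PC replicate (limma, adjusted p from 0.0516 to 0.10).

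The receptor genes called higher in PCs included the shared signalling chains of the IL-6 and GM-CSF receptor families. Il6st, which encodes the shared IL-6 family chain gp130, was 0.50, 10.7 and 1.22 scaled TPM in the 3 MBC libraries and 34.5, 54.7, 37.9 and 36.9 in the 4 PC libraries (3.61, SE 0.67; limma, adjusted p = 0.0093). Within the libraries of the more frequent title prefix its adjusted p was 0.0534 (limma), and other calls lost there are given with the effects of the processing. Csf2rb, the common chain of the IL-3, IL-5 and GM-CSF receptors, was 1.86, 0.55 and 1.14 scaled TPM in MBCs and 14.0 to 24.8 in PCs (3.31, SE 0.48; limma, adjusted p = 0.0023). Ifnar2, a chain of the type I interferon receptor, was 1.47, 16.1 and 5.86 scaled TPM in MBCs and 48.1 to 66.5 in PCs (3.01, SE 0.60; limma, adjusted p = 0.0136), and it lost its call without PC replicate 3 (adjusted p = 0.0519). Its partner Ifnar1 was 12.1 to 28.2 scaled TPM in MBCs and 16.5 to 22.3 in PCs, with overlap (-0.04, SE 0.40; limma, adjusted p = 0.969).

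The remaining receptor genes called higher were Prlr, Il13ra1, Il7r and Il2rb. Prlr, the prolactin receptor gene, was listed at 0 in all 3 MBC libraries and was 21.4, 16.01, 13.7 and 17.5 scaled TPM in the 4 PC libraries (limma, adjusted p = 0.00047). Il13ra1, a chain that pairs with IL-4Rα, was listed at 0 in all 3 MBC libraries and was 6.50, 5.57, 4.01 and 4.54 in PCs (limma, adjusted p = 0.0053). Il7r was 0.44, 0.13 and 0.03 scaled TPM in the 3 MBC libraries and 8.40, 5.83, 4.67 and 5.62 in the 4 PC libraries (2.56, SE 0.46; limma, adjusted p = 0.0080). Il2rb was listed at 0 in MBC replicate 1, was 5.96 and 1.83 scaled TPM in replicates 2 and 3, and was 12.5, 22.2, 25.4 and 21.5 in PCs (2.94, SE 0.67; limma, adjusted p = 0.0249). Without PC replicate 2, 3 or 4 the call of Il2rb was lost (limma, adjusted p = 0.0889, 0.085 and 0.081). None of these genes overlapped between the groups, and Prlr, Il13ra1 and Il7r reached the minimum for testing through PCs alone. Il2rb, and Il6st and Csf2rb above, did not reach 1 TPM in all 3 MBC libraries, so they too needed PC libraries to be tested.

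Markers of T cells, which also carry Il7r, Il2rb and Il6st, moved with the groups. The 6 T cell marker genes summed to 0, 0 and 1.08 scaled TPM in the 3 MBC libraries and to 14.6, 26.4, 35.2 and 32.6 in the 4 PC libraries. Of the 6, none was above 0 in MBC replicates 1 and 2, 4 were above 0 in replicate 3, and 3 to 6 were above 0 in PCs. Cd3e reached at most 0.658 scaled TPM in MBCs and was 3.86 to 14.2 in PCs, and Cd8a was listed at 0 in all libraries but PC replicate 4. The part of T cell RNA in the receptor values, and in Socs2 and Socs3, was not tested. The 6 myeloid genes summed to 2.32 to 29.0 scaled TPM in MBCs and 2.15 to 7.68 in PCs, with overlap. The shared γ-chain gene Il2rg was the most abundant receptor gene, at 261, 224 and 84.7 scaled TPM in the 3 MBC libraries and 118 to 159 in PCs, and did not pass the test (-0.30, SE 0.41; limma, adjusted p = 0.702). Ifngr2, the partner of Ifngr1, was 58.0, 13.0 and 7.76 scaled TPM in MBCs and 3.09 to 13.0 in PCs and did not pass (-1.52, SE 0.72; limma, adjusted p = 0.231). Its log2 fold change was -0.71 without MBC replicate 1 and passed with TPM as deposited (-2.71; limma, adjusted p = 0.0217).

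**Figure D4:**
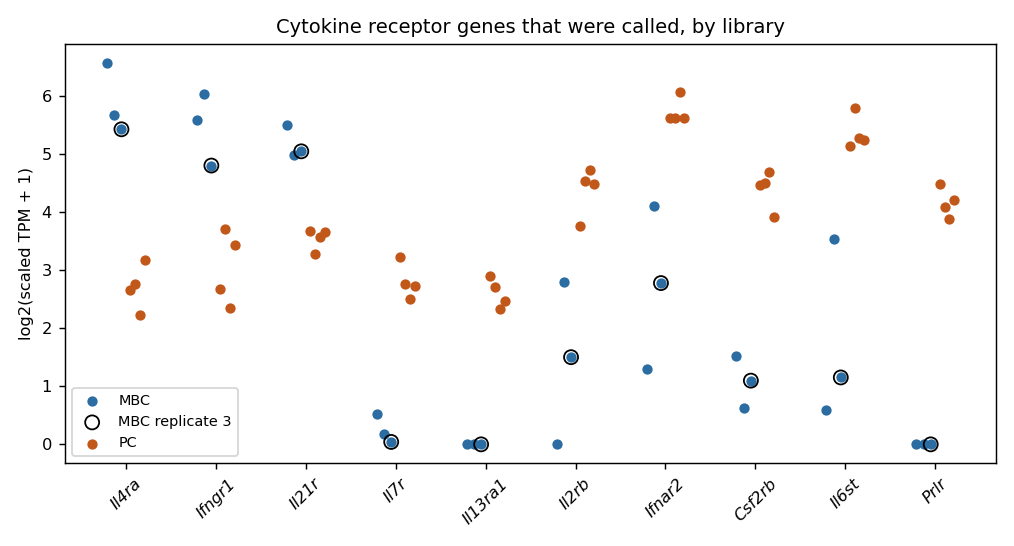
Level on the log2(scaled TPM + 1) scale (vertical axis) of the 10 receptor genes that were called (horizontal axis, ordered by log2 fold change), in MBC libraries (blue) and PC libraries (orange). Rings mark the library labelled MBC replicate 3. Il4ra, Ifngr1 and Il21r lie lower in every PC library and the other 7 genes higher in every PC library.

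Genes known to respond to STAT proteins were read as a list of 12, all of them tested. Of these, 3 were called higher in PCs and 1 lower, against 6.41% and 2.14% of all genes tested. The median log2 fold change was 0.50. Fcer2a, the low-affinity IgE receptor gene CD23, which IL-4 induces through STAT6, was 292, 343 and 104 scaled TPM in the 3 MBC libraries and 15.7, 7.95, 10.8 and 11.4 in the 4 PC libraries (-4.17, SE 0.47; limma, adjusted p = 0.00048). As for Stat6, the library labelled MBC replicate 3 was the lowest of the MBCs, but it stayed well above the PCs. The kinase genes Pim1 and Pim2, which promote survival and growth downstream of STAT3 and STAT5, rose in PCs. Pim1 was 9.58, 15.6 and 14.6 scaled TPM in MBCs and 51.2 to 79.9 in PCs (2.15, SE 0.35; limma, adjusted p = 0.0049), and Pim2 was 12.4, 6.43 and 4.50 in MBCs and 31.4 to 50.3 in PCs (2.37, SE 0.42; limma, adjusted p = 0.0076). Neither Pim gene kept its call with TPM as deposited (log2 fold change 0.88 for Pim1 and 1.14 for Pim2; limma, adjusted p = 0.081 and 0.0736). Prdm1, which encodes the plasma cell regulator BLIMP-1, was also called higher (5.04, SE 0.69; limma, adjusted p = 0.0017). It was listed at 0 in MBC replicate 2, so it reached the minimum for testing only with PC libraries. Prdm1 is a defining gene of PCs and Fcer2a a gene of mature B cells, and neither is a specific readout of a STAT protein.

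Other abundant genes of the list did not pass. Mcl1, a survival gene of the BCL2 family, was 94.1 to 217 scaled TPM in MBCs and 126 to 159 in PCs (0.06, SE 0.35; limma, adjusted p = 0.934), and its direction turned under other scalings. Ccnd2, a cyclin gene, was 15.8, 18.7 and 4.41 scaled TPM in the 3 MBC libraries and 29.6 to 47.4 in PCs, higher in every PC library but not called (1.63, SE 0.50; limma, adjusted p = 0.0823), and its log2 fold change was 1.05 without MBC replicate 3 (limma, adjusted p = 0.0669). Bcl6, the GC regulator that STAT proteins can induce, was 26.7, 15.6 and 105 scaled TPM in the 3 MBC libraries and 9.29 to 18.3 in PCs. Its highest value was that of the library labelled MBC replicate 3, in which Stat6 was the lowest of the MBCs. Its log2 fold change was -1.24 with all libraries and -0.47 without that library (limma, adjusted p = 0.252 and 0.482).

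The genes whose pattern was most like that of each member over the 7 libraries were read by Pearson's r of log2(scaled TPM + 1), as a description. The points share libraries and scaling, and no p is given. Jak1 was closest to Herc3 and to Prkcb, a kinase gene of the B cell receptor pathway (r = 0.997 for both). Prkcb was 139, 200 and 84.8 scaled TPM in the 3 MBC libraries and 19.9 to 26.8 in PCs, with the MBC libraries in the same order as for Jak1. Stat6 was closest to Pik3r4 (r = 0.996) and Tead2 (r = 0.994). Pik3r4 was 35.8, 26.2 and 11.0 scaled TPM in the 3 MBC libraries and 5.31 to 9.13 in PCs, with the MBC libraries in the same order as for Stat6. Socs2 was closest to Klhl9 (r = 0.991) and Tmem176b (r = 0.99), Stat3 to Dync1i2 (r = 0.985) and Lynx1 (r = 0.978), Stat5a to Mtrf1l (r = 0.982) and Chka (r = 0.978), Stat5b to Ube2j2 (r = 0.972) and Zcchc18 (r = 0.954), and Cish to Zfp358 (r = 0.985) and Nfkbiz (r = 0.983). The patterns nearest to Cish shared its single high library, with Nfkbiz at 28.9 scaled TPM in MBC replicate 1 and 1.99 to 9.15 in the others.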

How the data were processed

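Libraries of 3 MBC and 4 PC samples were prepared with Nugen's cDNA kit for the Illumina HiSeq. The authors deposited TPM, in which reads are set against gene length and each library has the same sum, for 48795 Ensembl genes. The submitters' processing notes name STAR 2.5.2a, RSEM 1.3.0, DESeq2 1.18.1 and GRCm38, without their roles. Whether counting used strand and how reads shared by similar genes were divided are not given in the sources used here. TPM holds no read totals, so no counting intervals are given. The depth is unknown.

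Gene IDs were matched to GENCODE M21 (GRCm38), which held 48435 of them. Each library's TPM was divided by a size factor, the median of its ratios to the geometric means of 9305 genes that no library lists at 0 (scaled TPM). With a minimum of 1 TPM in 3 or more libraries, 11573 genes remained. The test used log2(scaled TPM + 1), a pseudocount of 1, with limma 3.58.1 in R 4.3.3 (lmFit, eBayes with trend), over all 7 libraries, without a covariate, two-sided. The scale understates the fold change of low genes. Calls required an adjusted p (Benjamini-Hochberg, over all genes tested) under 0.05 and a log2 fold change of 1 or more in size. The procedure was run on simulated data with independent noise of equal spread in both groups. The real libraries differ from this setting, with Pearson's r of 0.675 to 0.687 between MBC libraries and 0.85 to 0.957 between PC libraries. The run therefore does not show how the procedure performs on these data. Groups and replicate numbers came from the sample descriptions. No 2 libraries were copies, since at least 99.3% of genes above 0 differed in the closest pair. Python 3.11.15 and pandas 2.3.3 were used for family shares, promoter motifs and stretches of 31 bases shared between transcripts.

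The members and the lists were chosen with earlier results of these data known. All members were described, and 1 gene of the lists is not reported here. From each list the genes that were called were named, with up to 3 more of the highest mean, and for each member the 2 genes of highest Pearson's r. The alternatives were other scalings, a pseudocount of 0.1, no minimum, no trend, each library left out, the more frequent title prefix alone and replicate blocks. A minimum and a pseudocount set which low genes can pass.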

Additional observations from a re-analysis of the deposited data

Results flagged for a closer look

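Among the 38 genes described (members and named genes), the 4 PC libraries were searched for a library whose distance to its nearest neighbour took up most of the range of the group, past Dixon's critical value. Chance gives such a gap in about 1 of 20 groups, and 4 of 38 genes showed one. Stat4 was 13.7 scaled TPM in PC replicate 1 and 1.81 to 2.85 in the other PC libraries, within the range of the MBC libraries. Sh2b3 was 10.6 scaled TPM in PC replicate 3 and 4.30 to 5.27 in the other PC libraries. Ifnar2 was 66.5 scaled TPM in PC replicate 3 and 48.1 to 48.5 in the others. Il6st was 54.7 scaled TPM in PC replicate 2 and 34.5 to 37.9 in the others. Sh2b3, Ifnar2 and Il6st kept every PC library on the same side of the MBC libraries.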

How the results depend on the processing

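Over 17 alternatives Jak1 stayed lower in PCs (log2 fold change -2.93 to -1.43), Stat6 lower (-3.39 to -1.57), Stat3 lower (-1.85 to -0.17) and Socs2 higher (1.85 to 4.50). Stat6 passed with TPM as deposited (limma, adjusted p = 0.0044), immunoglobulin genes removed (0.0363), quantile normalization (0.0434), the more frequent title prefix alone (0.0177) and without MBC replicate 3 (0.0037), and Socs2 did not pass within that prefix (0.0727). The fit within the prefix leaves out MBC replicate 3 and PC replicate 4, so it overlaps with the fit without MBC replicate 3. Within the prefix, the calls of Ptpn6, Il6st, Ifnar2, Il2rb and Il21r were lost as well (limma, adjusted p from 0.0524 to 0.0826). With TPM as deposited, those of Ifnar2, Il2rb, Pim1 and Pim2 were lost (limma, adjusted p from 0.0511 to 0.081). With no minimum, those of Il2rb, Ptpn1 and Ifnar2 were lost (limma, adjusted p = 0.0801, 0.0621 and 0.0538). With no trend, Ptpn1 and Ptpn6 lost theirs (limma, adjusted p = 0.0527 and 0.0505). Il2rb also lost its call with a pseudocount of 0.1 and with immunoglobulin, mitochondrial and ribosomal RNA genes removed (limma, adjusted p = 0.0796 and 0.0501). The causes of these changes were not tested.

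Main counts were 742 genes higher and 248 lower, with 1 member each. Genes called higher numbered 472 with TPM as deposited, 393 with immunoglobulin genes removed, 433 with mitochondrial and ribosomal RNA genes removed as well, 437 with no minimum and 451 to 1592 with 1 library left out. Genes called lower numbered 3018 with TPM as deposited, 431 with immunoglobulin genes removed, 490 with quantile normalization, 123 with no minimum, 417 within the prefix and 91 to 919 with 1 library left out. Among the fits that left out 1 library, both counts were highest without MBC replicate 3. Members called higher were 0 with no minimum and within the prefix, and 0 to 1 with 1 library left out. Members called lower were 3 with TPM as deposited, 2 with quantile normalization, within the prefix and without immunoglobulin genes, and 0 to 2 with 1 library left out. The share of higher among called genes differed with the scaling, and TPM as deposited moved the median log2 fold change of all genes from 0.14 to -0.91.

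The groups share replicate numbers, but the deviations of same-numbered libraries from their group means had correlations of 0.109, -0.0398 and -0.0832, so the numbers were not taken to pair the libraries. MBC and PC replicates 1 also share a title code, whose meaning the labels do not give. Libraries with the same title code had correlations of 0.109, -0.00436 and 0.222. With a replicate block by number, 390 genes were called higher and 60 lower, and with a replicate block by title code 434 and 83. Members called were 0 in both directions in either block (limma, Jak1 adjusted p = 0.129 and 0.09, Socs2 0.121 and 0.0999), with log2 fold changes close to those without it. Calls of Ptpn1, Ptpn6, Sh2b3, Il2rb, Il7r, Il13ra1, Il21r and Ifngr1 were also lost in both blocks, and those of Pim1 and Pim2 in the block by number.

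Without MBC replicate 3, log2 fold changes that moved by more than 1.5 times were -0.88 for Stat3, 0.44 for Stat5a, 0.09 for Stat5b, -1.05 for Cish, 0.54 for Ptpn2, -0.87 for Pias1, -0.80 for Il2rg and -0.36 for Ifnar1, none of them called. With 1 library left out, Stat5a ranged from -0.44 to 0.82, Stat5b from -0.20 to 0.42, Cish from -1.06 to 1.57, Ptpn2 from -0.51 to 0.89, Il2rg from -0.80 to 0.00, Ifnar1 from -0.36 to 0.22 and Mcl1 from -0.17 to 0.42. Stat5a was -0.76 with TPM as deposited, -0.27 with quantile normalization, -0.44 without MBC replicate 2 and -0.04 without PC replicate 1. Stat5b was -1.08 with TPM as deposited, -0.27 with immunoglobulin genes removed, -0.15 with the other abundant genes removed too, -0.30 with quantile normalization, -0.05 with a pseudocount of 0.1, -0.17 without MBC replicate 2, and -0.20 without PC replicate 2, without PC replicate 3 and with the block by title code. Cish was 0.31 with immunoglobulin and the other abundant genes removed, 1.32 with a pseudocount of 0.1, 1.57 without MBC replicate 1, 0.07 without PC replicate 2, 0.03 without PC replicate 4, and 0.03 and 0.07 with the blocks. Among other genes, Ptpn2 was -0.94 and Ptpn11 -0.19 with TPM as deposited, and Ptpn2 -0.51 without MBC replicate 1. Without MBC replicate 1, Il2rg was 0.00 and Ifnar1 0.22. Ifnar1 was 0.04 without MBC replicate 2 and 0.03 without PC replicate 4 and with the block by number. Mcl1 was -1.25 with TPM as deposited, -0.22 with immunoglobulin genes removed, -0.07 with the others removed too, -0.49 with quantile normalization, -0.06 without MBC replicate 1, -0.17 without MBC replicate 3 and within the prefix, and -0.01 without PC replicate 2 and with the block by title code.

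Depth could not be read from TPM, so values listed at 0 and those of Socs1 and Socs3 limit what can be said of these genes.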
